A study of Arabidopsis thaliana with 24 samples.

Results

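The 6 genes described here encode proteases and nucleases of vessel cell death, and they were followed across all 24 root libraries of the series: the proteases XCP1 (AT4G35350), XCP2 (AT1G20850), XSP1 (AT4G00230) and MC9 (AT5G04200), and the nucleases BFN1 (AT1G11190) and RNS3 (AT1G26820). They were chosen by locus from the 34218 features of the deposited count table. All 6 of the 6 were present, and all 6 passed the filter on low counts, which left 21315 genes for testing.

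The plants were F1 seedlings of Arabidopsis thaliana, 5 days old, from 4 crosses. In every cross a line that carries UAS::abi1-1 was one parent, so all groups, controls included, held this transgene for a dominant negative-acting form of the ABA signalling phosphatase ABI1. In UAS::abi1-1xJ0571, UAS::abi1-1xJ1721 and UAS:abi1-1xQ0990 the other parent was an enhancer trap line that supplies the activator of the transgene in its own set of cells, which the labels do not name. UAS::abi1-1xC24 had the wild-type accession C24 as the other parent and no driver. Seedlings of each cross were moved to plates with 1 µM abscisic acid (ABA) or to mock plates for 8 h, and roots of 1 cm were taken, pooled from 50 to 100 seedlings a library. This gave 8 groups of 3 libraries. Nothing in the labels says whether the pools were sown separately, and p-values therefore reflect only how far such pools differed, which may be technical.

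Vessel elements of the xylem die as the last step of their differentiation and leave a hollow, lignified wall through which water moves. The enzymes that digest the cell contents are made before death and are held in the vacuole or in other compartments until the vacuole bursts. NAC factors of the VND family switch on this set together with the genes of the secondary wall, and ABA is known to act on xylem formation in roots. Several of the death genes, BFN1 and RNS3 among them, are also known from dying cells of the lateral root cap.

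Library totals ran from 38542817 to 61555387 counts, and a member had between 266 and 11285 counts in a library. ABA and mock libraries separated on the first principal component, with 53.1% of the variance. J1721 ABA library 1 lay at 37.1 on it, against 57.1 and 51.8 for its replicates. All J0571 ABA libraries were low as well, at 29.7, 38.5 and 38.8, against 50.4 to 61.0 for the ABA libraries of Q0990 and C24. Mock library 1 lay apart on the second component (5.57% of the variance) in every cross, at -30.5 against -13.3 and -16.4 in J0571, at -15.9 against 8.66 and 2.86 in J1721, at 27.4 against 1.25 and 3.08 in Q0990 and at 40.4 against 3.31 and 7.89 in C24. ABI1 itself, whose counts may pool native and transgene transcripts, had 269 to 412 CPM in the 12 ABA libraries and 93.7 to 117 CPM in the 12 mock libraries of all crosses. Markers of root epidermis, endodermis and root cap were detected in every group. SAG12, a protease gene of leaf senescence, had 0 counts in all 24 libraries, which allows a level of up to 0.0778 CPM in the shallowest of them, for counting error only.

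ABA raised BFN1 in all 4 crosses and by far more than any other member, raised XCP1 in all 4 crosses and XCP2 in 3 of them, and lowered XSP1 in 3. MC9 and RNS3 passed the test in J0571 alone, with small changes. Levels are CPM, the counts of a gene scaled to a common library size after normalisation by trimmed mean of M values. Changes are log2 ratios of ABA over mock with the standard error of the fit. Calls rest on adjusted p-values under 0.05 from the quasi-likelihood test of edgeR, with the Benjamini-Hochberg method applied over all genes tested. In bulk roots, more cells of a type and more RNA in each cell cannot be told apart.

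Of the 6 members, 5 rose and 0 fell in J0571, where 14.4% of all genes tested rose and 9.87% fell. In J1721, 2 rose and 1 fell, against 15.8 and 12.7% of all genes. In Q0990, 3 rose and 1 fell, against 17 and 14.2% of all genes. In C24, 3 rose and 1 fell, against 18.6 and 15.4% of all genes. The median log2 change over the members was 0.43 in J0571, 0.14 in J1721, 0.26 in Q0990 and 0.44 in C24, whereas the median over all genes tested lay between -0.02 and 0.01. BFN1 stood near the top of all genes, with 240 genes that had a larger rise in J0571, 353 in J1721, 246 in Q0990 and 240 in C24.

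**Figure D1:**
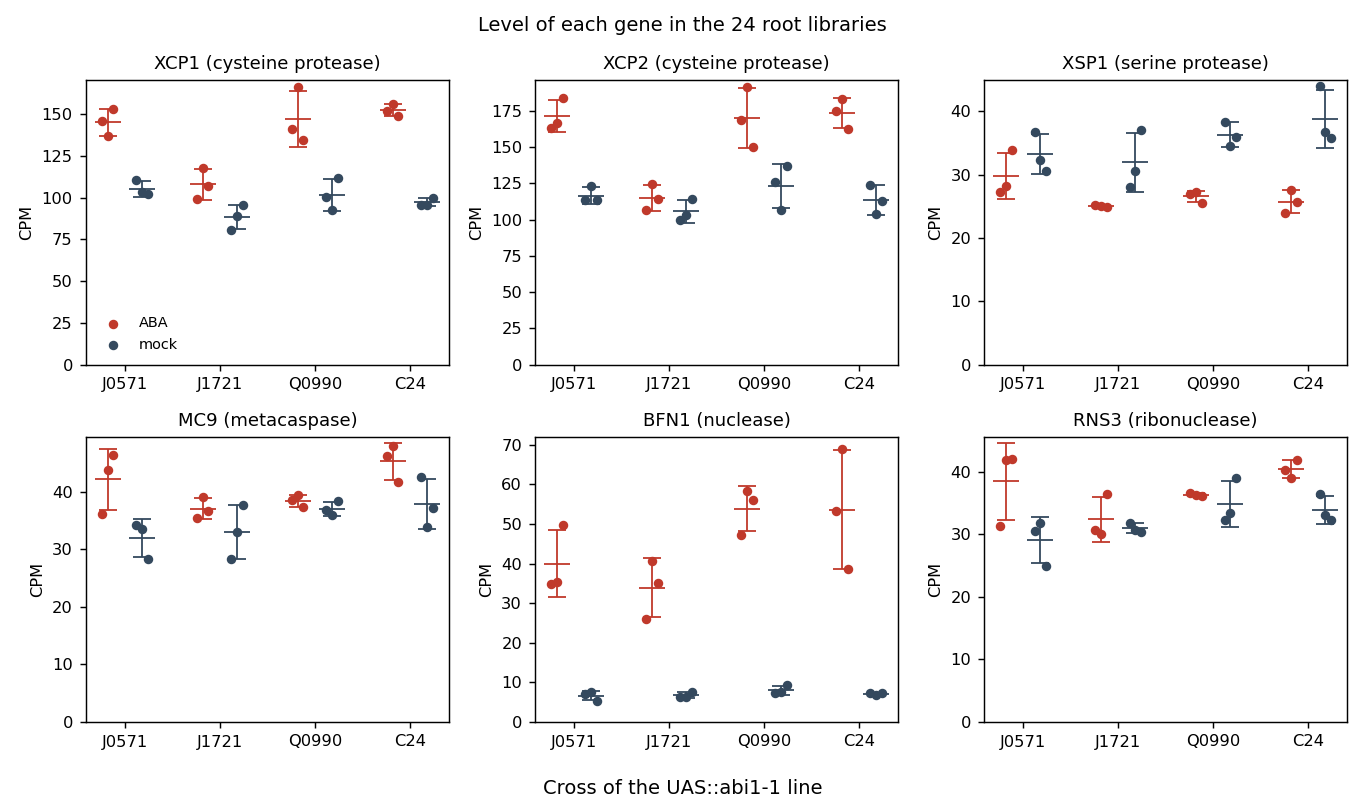
Level of each of the 6 genes in CPM (vertical axis, from 0) in the 4 crosses (horizontal axis), with ABA libraries in red on the left and mock libraries in dark blue on the right of each cross. Points are libraries, and the bars give the mean and SD of 3 libraries. BFN1 lies between 26.0 and 68.8 CPM with ABA and between 5.37 and 9.29 CPM in mock roots, while XSP1 is the gene whose ABA means are below the mock means in every cross.

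XCP1 and XCP2 encode papain-like cysteine proteases of the xylem, which together take part in the breakdown of vessel contents. They are close relatives, and how the counting treated reads that match both genes is not given in the sources used here. XCP1 had 146, 137 and 153 CPM in J0571 ABA libraries, against 111, 103 and 102 CPM in J0571 mock libraries. In J1721 it had 99.2, 118 and 107 CPM with ABA, against 80.7, 88.7 and 95.4 CPM in mock. In Q0990 it had 141, 166 and 134 CPM with ABA, against 100.1, 92.8 and 112 CPM in mock. All ABA libraries lay above all mock libraries of their cross, and by a narrow margin in J1721. In C24 the gene had 152, 156 and 149 CPM with ABA, against 95.7, 95.8 and 99.8 CPM in mock, the widest gap of the 4 crosses. The log2 change was 0.46 ± 0.08 in J0571 (adjusted p = 0.000135), 0.29 ± 0.08 in J1721 (adjusted p = 0.00971), 0.53 ± 0.08 in Q0990 (adjusted p = 1.9e-05) and 0.65 ± 0.08 in C24 (adjusted p = 1.13e-06). XCP1 thus rose in each cross. The J1721 call was lost without J1721 ABA library 2 (adjusted p = 0.0733), without J1721 mock library 1 (adjusted p = 0.0649) and without mock library 1 of every cross (adjusted p = 0.0756), within a range of 0.00438 to 0.0756 over all alternatives.

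XCP2 rose in 3 crosses and did not pass the test in J1721. It had 163, 167 and 184 CPM in J0571 ABA libraries, against 113, 123 and 113 CPM in J0571 mock libraries. In Q0990 it had 168, 192 and 149.9 CPM with ABA, against 126, 107 and 137 CPM in mock. In C24 it had 175, 183 and 163 CPM with ABA, against 124, 103 and 113 CPM in mock. The groups did not overlap in these 3 crosses. In J1721, by contrast, XCP2 had 107, 124 and 114 CPM with ABA, against 99.5, 103 and 114 CPM in mock, and the groups overlapped. The log2 change was 0.56 ± 0.09 in J0571 (adjusted p = 7.88e-05), 0.12 ± 0.09 in J1721 (adjusted p = 0.376), 0.46 ± 0.09 in Q0990 (adjusted p = 0.000483) and 0.61 ± 0.10 in C24 (adjusted p = 1.61e-05). Without J1721 ABA library 1 the change in J1721 was 0.17 ± 0.11.

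XSP1, a subtilisin-like serine protease found in xylem, moved the other way. It had 27.2, 28.2 and 34.0 CPM in J0571 ABA libraries, against 36.7, 32.4 and 30.7 CPM in J0571 mock libraries, and these groups overlapped. In J1721 it had 25.2, 25.0 and 24.9 CPM with ABA, against 28.0, 30.6 and 37.1 CPM in mock. In Q0990 it had 26.9, 27.2 and 25.6 CPM with ABA, against 38.4, 34.5 and 35.99 CPM in mock. Every ABA library lay below every mock library in J1721 and Q0990. The same held in C24, with 23.9, 27.5 and 25.7 CPM with ABA, against 44.0, 36.7 and 35.7 CPM in mock. The log2 change was -0.16 ± 0.10 in J0571 (adjusted p = 0.301), -0.35 ± 0.10 in J1721 (adjusted p = 0.0106), -0.45 ± 0.10 in Q0990 (adjusted p = 0.00131) and -0.59 ± 0.10 in C24 (adjusted p = 6.08e-05). XSP1 thus fell in J1721, Q0990 and C24. The J1721 call was lost without J1721 mock library 3, at -0.23 ± 0.10 (adjusted p = 0.118), within a range of 0.00133 to 0.118 over all alternatives.

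MC9 is a metacaspase, a cysteine protease that cuts after basic residues and is known to act in the clearing of vessel contents. It had 36.2, 43.8 and 46.4 CPM in J0571 ABA libraries, against 34.2, 33.5 and 28.2 CPM in J0571 mock libraries. In J1721 it had 35.4, 39.0 and 36.7 CPM with ABA, against 28.3, 33.0 and 37.7 CPM in mock. Only in J0571 did the groups of MC9 stay apart, and its change there of 0.40 ± 0.10 was called (adjusted p = 0.00502). In Q0990 MC9 had 38.6, 39.4 and 37.3 CPM with ABA, against 36.9, 35.9 and 38.4 CPM in mock. In C24 it had 46.2, 47.9 and 41.7 CPM with ABA, against 42.5, 33.9 and 37.2 CPM in mock. The log2 change was 0.16 ± 0.10 in J1721 (adjusted p = 0.258), 0.05 ± 0.10 in Q0990 (adjusted p = 0.744) and 0.26 ± 0.10 in C24 (adjusted p = 0.0533). In C24 MC9 was called without C24 ABA library 3 (adjusted p = 0.0378), without C24 mock library 1 (adjusted p = 0.0165) or without mock library 1 of every cross (0.35 ± 0.10, adjusted p = 0.0109), within a range of 0.0109 to 0.231 over all alternatives.

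BFN1 encodes a nuclease that degrades both DNA and RNA and is known from senescence and from developmental cell death. It had 34.8, 35.4 and 49.7 CPM in J0571 ABA libraries, against 6.92, 7.57 and 5.37 CPM in J0571 mock libraries. In J1721 it had 26.0, 40.6 and 35.1 CPM with ABA, against 6.35, 6.23 and 7.61 CPM in mock. In Q0990 it had 47.3, 58.2 and 56.0 CPM with ABA, against 7.18, 7.42 and 9.29 CPM in mock. The lowest ABA library of each cross was well above the highest mock library. C24 had the widest spread among ABA libraries, at 53.2, 68.8 and 38.7 CPM, against 7.20, 6.87 and 7.19 CPM in mock. The log2 change was 2.59 ± 0.19 in J0571 (6.04-fold, adjusted p = 3.78e-10), 2.33 ± 0.19 in J1721 (5.01-fold, adjusted p = 1.37e-09), 2.76 ± 0.19 in Q0990 (6.77-fold, adjusted p = 7.85e-11) and 2.92 ± 0.20 in C24 (7.56-fold, adjusted p = 3.13e-11). Without J1721 ABA library 1, the lowest of its group, the J1721 change was 2.49 ± 0.19.

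RNS3 encodes a ribonuclease of the T2 family that is a known marker of developmental cell death in Arabidopsis. It had 31.3, 41.9 and 42.0 CPM in J0571 ABA libraries, against 30.5, 31.8 and 24.9 CPM in J0571 mock libraries, so that 1 ABA library lay within the mock range. In J1721 it had 30.7, 30.0 and 36.4 CPM with ABA, against 31.8, 30.6 and 30.3 CPM in mock. In Q0990 it had 36.6, 36.2 and 36.1 CPM with ABA, against 32.2, 33.3 and 39.0 CPM in mock. The groups overlapped in these crosses. In C24 they did not, at 40.3, 38.9 and 41.8 CPM with ABA, against 36.4, 33.1 and 32.2 CPM in mock. The log2 change was 0.40 ± 0.10 in J0571 (adjusted p = 0.00515), 0.06 ± 0.10 in J1721 (adjusted p = 0.704), 0.06 ± 0.10 in Q0990 (adjusted p = 0.708) and 0.25 ± 0.10 in C24 (adjusted p = 0.0656). RNS3 passed the test in J0571 alone, and that call was lost without J0571 ABA library 2 (adjusted p = 0.0503) or J0571 mock library 3 (adjusted p = 0.0508), within a range of 0.00025 to 0.0508. In C24 RNS3 was called without C24 mock library 1 (adjusted p = 0.0471) and in a fit of the C24 libraries alone (adjusted p = 0.045), within a range of 0.045 to 0.186.

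**Figure D2:**
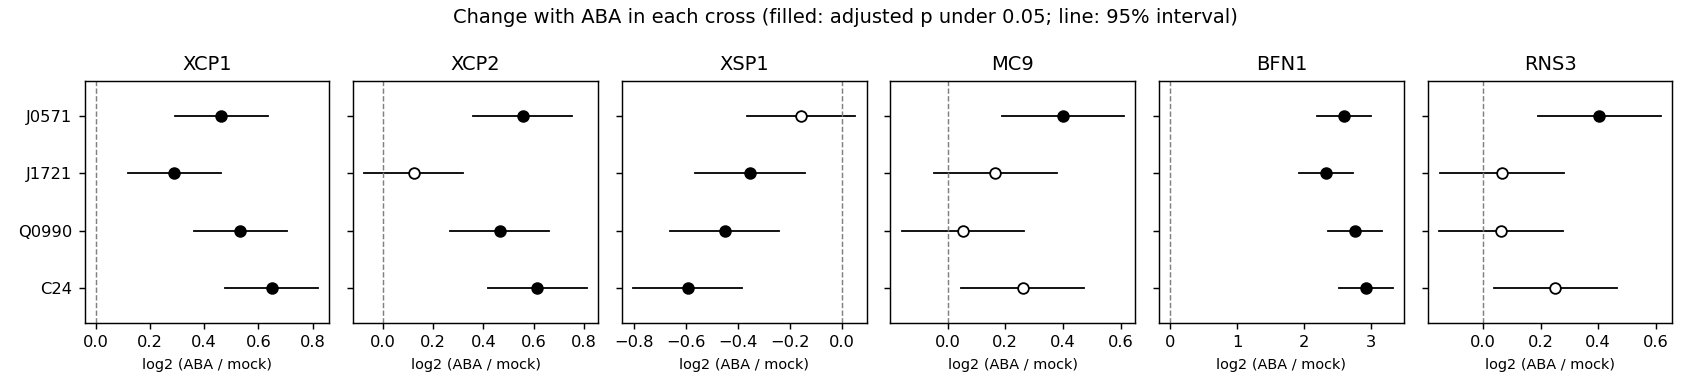
Log2 change of ABA over mock for each gene (1 panel each, with its own horizontal axis) in the 4 crosses, with the 95% interval of the fit as a line; filled points have an adjusted p under 0.05. BFN1 ranges from 2.33 to 2.92, XSP1 lies below 0 in every cross, and XCP2 in J1721 and XSP1 in J0571 are the unfilled points of genes called in the other 3 crosses.

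Without added ABA the group means of the 4 crosses lay close together. The highest mock group mean was 1.17 to 1.22 times the lowest for each member. XCP1 ran from 88.3 CPM in J1721 to 105 CPM in J0571, and BFN1 from 6.62 CPM in J0571 to 7.96 CPM in Q0990. By edgeR, 0 of 6 members were called in mock roots of J0571, J1721 or Q0990 against C24, where 0.474, 0.0422 and 0.0469% of all genes were, and DESeq2 also called 0 in each. An unadjusted p under 0.05 was reached by 3 members in J0571 against C24 (MC9, RNS3 and XSP1, with log2 differences of -0.24 ± 0.10, -0.22 ± 0.10 and -0.22 ± 0.10), by 1 in J1721 against C24 (XSP1, -0.28 ± 0.10) and by 0 in Q0990 against C24. The 95% intervals of all these mock differences lay within -0.51 and 0.58. These comparisons share the C24 mock libraries.

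With ABA the highest group mean was 1.41 times the lowest for XCP1, 1.51 times for XCP2, 1.22 times for MC9, 1.59 times for BFN1 and 1.25 times for RNS3, each more than in mock roots. For XSP1 it was 1.19 times with ABA and 1.22 times in mock. J1721 had the lowest ABA mean of the 4 crosses for each of the 6 members, and also the lowest mock mean for XCP1, XCP2 and XSP1, and all 6 of its mock differences from C24 were below 0, from -0.28 to -0.07. The highest J1721 ABA library was below the lowest ABA library of any other cross for XCP1 (118 against 134 CPM) and for XCP2 (124 against 149.9 CPM). For XCP2 the ABA means were 171 ± 11.2 CPM in J0571, 115 ± 8.82 CPM in J1721, 170.0 ± 20.9 CPM in Q0990 and 174 ± 10.3 CPM in C24 (SD, n = 3). J0571, Q0990 and C24 overlapped in ABA libraries for XCP1 and XCP2, and for BFN1 the ABA libraries of J1721 overlapped those of J0571 and C24. Differences in ABA level between crosses were not tested as such.

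The series asks whether the response to ABA depends on the cells in which ABA signalling is blocked. By edgeR, 0 of 6 members differed in response between any pair of crosses. The share of all genes called was 0.403% for J0571 against C24, 0.169% for J1721 against C24, 0% for Q0990 against C24, 0.305% for J0571 against J1721, 0.389% for J0571 against Q0990 and 0.0235% for J1721 against Q0990. DESeq2 called 0 members in each of the 6. At an unadjusted p under 0.05 there were 1, 3, 0, 2, 2 and 2 members in the same order. The smallest belonged to XCP2 in J1721 against C24, where changes of 0.12 in J1721 and 0.61 in C24 gave a difference of -0.49 ± 0.13 (unadjusted p = 0.00128 in edgeR's fit, adjusted p = 0.299, 95% interval -0.77 to -0.21). XCP1 differed there by -0.36 ± 0.12 (95% interval -0.60 to -0.12) and BFN1 by -0.59 ± 0.27 (95% interval -1.14 to -0.04). XSP1 had the smallest unadjusted p in J0571 against C24, with a difference of 0.44 ± 0.14 (95% interval 0.14 to 0.73, adjusted p = 0.3). In Q0990 against C24 the 6 differences lay between -0.21 and 0.14.

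Between driver crosses, XCP2 responded more in J0571 than in J1721 by 0.43 ± 0.13 (95% interval 0.16 to 0.71, adjusted p = 0.297). MC9 and RNS3 had differences of 0.35 ± 0.15 and 0.34 ± 0.15 in J0571 against Q0990 (adjusted p = 0.406 and 0.415). None of these passed the test over all genes. Intervals that reach -0.77 for XCP2 and -1.14 for BFN1 leave room for sizeable differences, so the test does not show that the crosses respond alike. The comparisons against C24 share its 6 libraries.

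**Figure D3:**
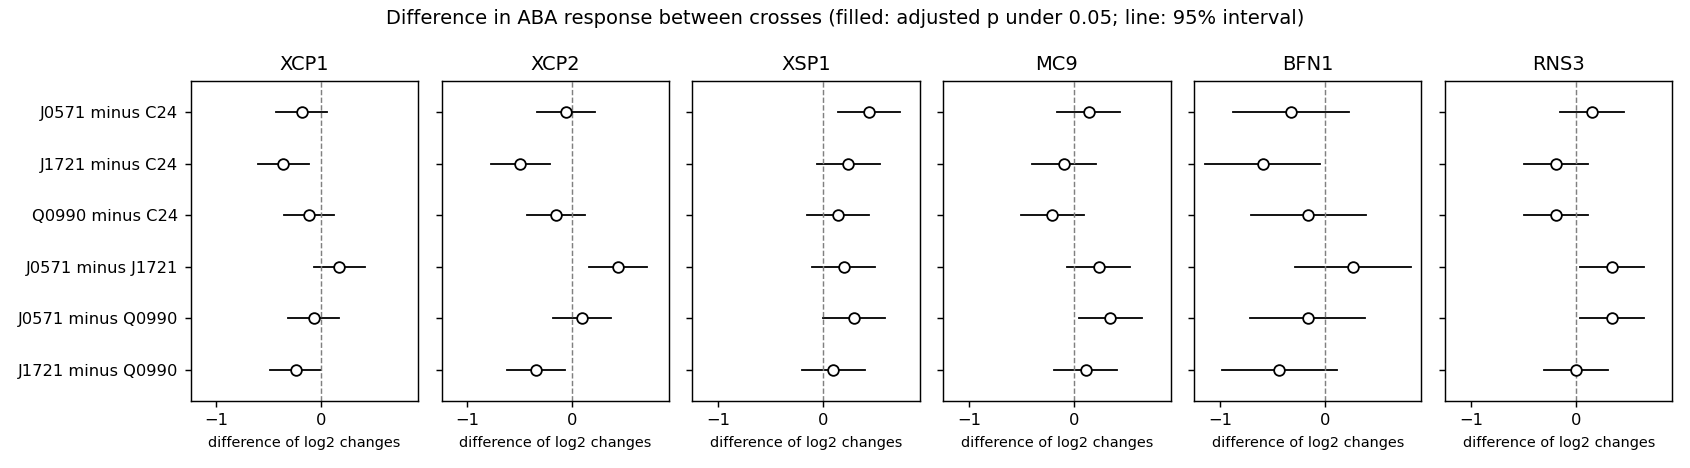
Difference in ABA response between 2 crosses for each gene, as the difference of log2 changes with its 95% interval, on 1 common horizontal axis. No point is filled, since no adjusted p was under 0.05; among the rows against C24, the XCP1, XCP2 and BFN1 intervals of J1721 minus C24 and the XSP1 interval of J0571 minus C24 do not reach 0.

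Levels can be set against each other between genes only per length, here as CPM per kb of merged exons in RefSeq's annotation of TAIR10.1. XCP2 and XCP1 were the most abundant in every group and together held 63.2 to 70.0% of the summed level of the 6 genes. In C24 ABA roots XCP2 stood at 126 ± 7.49 and XCP1 at 108 ± 2.64 CPM per kb, followed by BFN1 at 42.1 ± 11.8, RNS3 at 35.9 ± 1.28, MC9 at 34.8 ± 2.47 and XSP1 at 9.55 ± 0.68 CPM per kb. In C24 mock roots XCP2 stood at 82.3 ± 7.44 and XCP1 at 68.7 ± 1.67 CPM per kb, followed by RNS3 at 30.2 ± 1.99, MC9 at 29.1 ± 3.33, XSP1 at 14.4 ± 1.68 and BFN1 at 5.56 ± 0.15 CPM per kb. BFN1 was therefore the least abundant member in mock roots, as in the mock roots of the other crosses, and XSP1 the least abundant with ABA, again in all crosses. RNS3 and MC9 lay within 1 SD of each other in both treatments of C24. In Q0990 ABA roots they stood further apart, at 32.3 ± 0.22 for RNS3 and 29.5 ± 0.81 CPM per kb for MC9. The share of BFN1 in the summed level of the 6 genes was 9.33 to 12.4% in the ABA groups and 2.29 to 2.6% in the mock groups.

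Genes that act above and beside the death enzymes in vessels mostly rose where they were called. Of all genes tested, 14.4% rose in J0571, 15.8% in J1721, 17% in Q0990 and 18.6% in C24. The shares that fell were 9.87, 12.7, 14.2 and 15.4% in that order, and these shares also stand beside the gene lists that follow. Of 13 xylem transcription factor genes, all measured, 5 rose and 0 fell in J0571, 1 rose and 1 fell in J1721, 4 rose and 0 fell in Q0990, and 9 rose and 0 fell in C24. VND7, which turns on the vessel programme, rose by 0.77 ± 0.19 in J0571 and by 0.83 ± 0.19 in C24, with 0.48 ± 0.20 in J1721 and 0.33 ± 0.19 in Q0990 not called. MYB46, an activator of wall genes, rose by 1.01 ± 0.14 in J0571, by 0.89 ± 0.14 in Q0990 and by 1.2 ± 0.15 in C24, with 0.13 ± 0.15 in J1721. VNI2, a NAC factor that binds VND7 and represses it, rose in each cross by 0.58 to 1.05. VND6 fell in J1721, by 1.33 ± 0.32, although 1 ABA library lay within the mock range. Its counts there were low, at 59, 10 and 24 with ABA, against 41, 84 and 117 in mock.

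Of 13 secondary wall genes, 11 rose in J0571, 3 in J1721, 10 in Q0990 and 11 in C24, and 0 fell in each. The medians were 0.70, 0.20, 0.62 and 0.89 in that order. The cellulose synthase gene CESA7 rose by 0.70 ± 0.12 in J0571, by 0.85 ± 0.12 in Q0990 and by 1.14 ± 0.12 in C24, with 0.24 ± 0.12 in J1721. In J1721 against C24, 6 of these wall genes and MYB46 among the transcription factors had a lower response by the test of the difference. That test called 0.169% of all genes. CESA7 differed by -0.90 ± 0.17 (adjusted p = 0.0227) and MYB46 by -1.08 ± 0.21 (adjusted p = 0.0271), beside -0.49 for XCP2, which was not called. The count of 6 wall genes moved with single libraries: it was 7 without C24 ABA library 3, it was 0 without C24 ABA library 2, C24 mock library 1, J1721 ABA library 1, J1721 mock library 2 or J1721 mock library 3, it was 2 without C24 mock library 2 or 3 or J1721 ABA library 2 or 3, it was 2 with the replicate number as a block, 1 in a fit of the compared libraries alone and 0 without mock library 1 of every cross. MYB46 kept its call in 7 of 18 alternatives and CESA7 in 10 of 18, with adjusted p-values by edgeR or DESeq2 of 0.000886 to 0.125 and of 0.00044 to 0.114. The differences themselves lay between -1.22 and -0.95 for MYB46 and between -0.98 and -0.78 for CESA7 over these alternatives.

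Genes known from death in the root cap changed beside BFN1. Of 5 listed, 4 rose in J0571, 2 in J1721, 3 in Q0990 and 4 in C24, and 0 fell, while the J1721 count was 4 without J1721 ABA library 1. AT4G04460, which RefSeq describes as a saposin-like aspartyl protease, rose by 1.04 ± 0.10 in J0571, by 0.68 ± 0.10 in J1721, by 1.47 ± 0.10 in Q0990 and by 1.22 ± 0.10 in C24. Its response was lower in J1721 than in Q0990 by the test of the difference, at -0.79 ± 0.14 (adjusted p = 0.037), a call kept in 5 of 18 alternatives. SCPL48, a serine carboxypeptidase-like gene, rose in each cross by 0.63 to 0.88. SMB, the NAC factor that marks the root cap and controls its death, was not called in any cross, with changes from -0.27 to -0.15. Of 4 root cap markers, SMB, BRN1, BRN2 and FEZ, 0 were called in each cross by edgeR, and their summed level was 11.6 to 16.5 CPM in ABA libraries and 10.8 to 17.8 CPM in mock libraries. All 4 were above 0 in every group. Phloem markers summed to 45.3 to 67.4 CPM with ABA and 35.96 to 52.1 CPM in mock, with SUC2 raised in each cross and SEOR1, a sieve element gene, lowered in J1721 with a log2 change of -0.40 ± 0.15, and their part in the changes of the 6 genes was not tested. Endodermis markers summed to 200.2 to 252 CPM with ABA and 194 to 230.0 CPM in mock, and root epidermis markers to 75.7 to 93.6 CPM with ABA and 69.1 to 81.5 CPM in mock. ORE1, a NAC factor of leaf senescence that is known to activate BFN1, rose by 2.16 ± 0.17 in J0571, 2.6 ± 0.17 in J1721, 2.58 ± 0.17 in Q0990 and 2.81 ± 0.17 in C24. With ORE1 among them, 4 shoot and senescence genes summed to 52.6 to 89.9 CPM with ABA and 18.5 to 51.6 CPM in mock. RBCS1A, a gene of the carbon-fixing enzyme of leaves, fell in Q0990 by 1.26 ± 0.39 and in C24 by 1.14 ± 0.39, and LHCB1.3 was not called in any cross, with changes from -0.38 to -0.04.

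Among relatives of the 6 enzymes, metacaspase and nuclease genes were called in both directions, and papain-like protease genes in one. All genes tested were also called in both directions, with 14.4 to 18.6% that rose and 9.87 to 15.4% that fell in a cross. Among the 8 other metacaspase genes, 3 rose and 1 fell in J0571, 5 rose and 2 fell in J1721, 3 rose and 2 fell in Q0990, and 4 rose and 2 fell in C24. MC6 rose by 2.21 ± 0.17 in J0571, 1.42 ± 0.16 in J1721, 2.12 ± 0.16 in Q0990 and 2.31 ± 0.17 in C24, whereas MC2, a metacaspase of type I, fell by 1.99 ± 0.14, 1.3 ± 0.14, 2.32 ± 0.15 and 2.49 ± 0.15 in the same crosses. The fall of MC2 was smaller in J1721 than in C24 by 1.19 ± 0.20 (adjusted p = 0.0116, called in 15 of 18 alternatives). Both are far larger than the changes of MC9. Of 14 other papain-like and vacuolar processing protease genes, 12 were measured, and 11 rose in J0571 and 10 in each of J1721, Q0990 and C24, with 0 falling. Among these, RD21A and RD19A, vacuolar proteases of many tissues, rose by 0.59 to 0.77 and by 0.63 to 0.84. Of 6 other nuclease and ribonuclease genes, 1 rose and 1 fell in J0571, and 2 rose and 1 fell in each of J1721, Q0990 and C24. RNS1, a close relative of RNS3, rose by 1.39 ± 0.26 in J0571, 2.38 ± 0.26 in J1721, 2.63 ± 0.26 in Q0990 and 2.84 ± 0.27 in C24, while ENDO5, a relative of BFN1, fell in each cross by 0.64 to 0.83. Of 3 genes for known substrates or an inhibitor of metacaspases, only GRI, a substrate of MC9, was called, and it rose by 2.11 ± 0.21 in J0571, 2.41 ± 0.21 in J1721, 2.25 ± 0.21 in Q0990 and 2.4 ± 0.21 in C24.

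**Figure D4:**
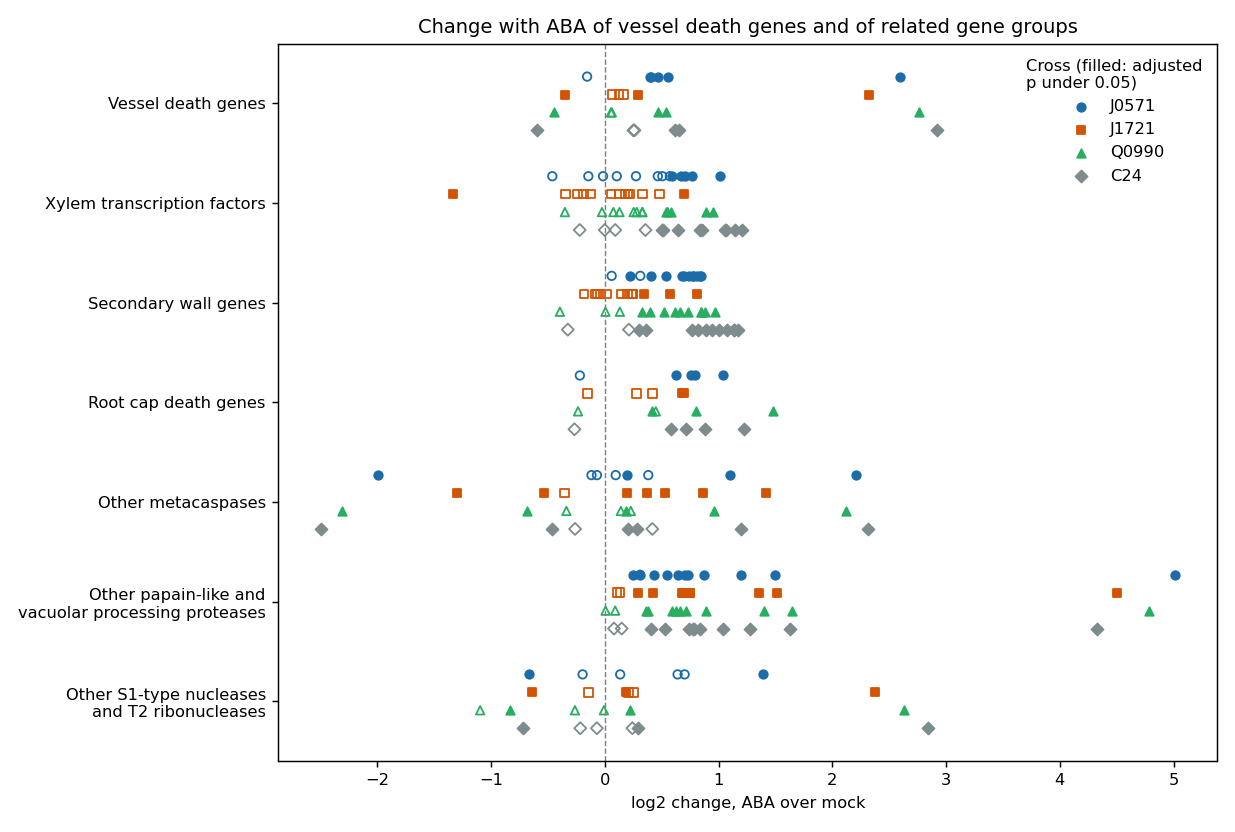
Log2 change of ABA over mock (horizontal axis) for the 6 vessel death genes and for 6 related groups (rows), with 1 colour and marker for each cross and filled markers at an adjusted p under 0.05. In J1721 the secondary wall genes centre on 0.20 with 3 of 13 filled, against 0.89 with 11 of 13 filled in C24, while the papain-like group lies above 0 in every cross.

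Likeness of pattern was ranked as a description by Pearson's r of log2(CPM + 0.5) over the 24 libraries, of which 12 had been treated with ABA, among 17533 other genes with a mean of at least 1 on the log2 CPM scale. XCP1 was most like AT1G24030 (0.98), described by RefSeq as a protein kinase superfamily gene, AT5G60720 (0.97) and the xylan synthesis gene IRX9 (0.97). XCP2 was most like XCP1 (0.96), IRX9 (0.96) and AT1G24030 (0.95). BFN1 was most like the purple acid phosphatase gene PAP22 (0.99), SCPL48 (0.99) and AT1G79520 (0.99). MC9 was nearest to AT2G14095 (0.87), AT4G18425 (0.86) and VND7 (0.83), and RNS3 to AT4G18425 (0.80), MC9 (0.80) and AT2G14095 (0.78). SCPL48, AT2G14095 and AT4G18425 are all on the list of root cap death genes used here, but bulk roots do not show in which cells they were expressed. XSP1 was nearest to OSB3 (0.90), emb1138 (0.89) and EMB3137 (0.89), none of which is on the lists of xylem genes used here. How far these r values rest on the split between ABA and mock libraries was measured for pairs of members alone. Among deviations from the group means over the same 24 libraries, r was 0.79 for XCP1 with XCP2, 0.78 for XSP1 with MC9, 0.64 for MC9 with BFN1, 0.50 for MC9 with RNS3 and 0.08 for XCP1 with RNS3. Over the libraries themselves it was 0.96 for XCP1 with XCP2, -0.11 for XSP1 with MC9, 0.67 for MC9 with BFN1, 0.80 for MC9 with RNS3 and 0.62 for XCP1 with RNS3.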

How the data were processed

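The authors deposited raw read counts per gene for 24 libraries in 1 table. HISAT2 and HTSeq are named in the submitters' processing notes. Tool versions, annotation, strand setting and build were not given in the sources used here. Reads of overlapping or near-identical genes may therefore not have been told apart. XCP1 overlaps AT4G35360, on the other strand, by 2 bases in RefSeq's TAIR10.1, which was used for names and exon lengths alone. RNA was extracted with a Qiagen kit and sequenced in pairs at 150 bases a read, according to the labels' protocols.

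Counts were filtered with edgeR's filterByExpr, normalised by trimmed mean of M values and fitted in 1 quasi-likelihood model of 8 group means (edgeR 4.0.16, limma 3.58.1, R 4.3.3), with Benjamini-Hochberg adjustment over 21315 genes. Comparisons were the ABA response of each cross, its difference between crosses (6 pairs) and mock roots against C24. The script was run on simulated counts with changes planted in the C24 ABA group alone. That is a simpler setting than these data, and no result here rests on it. Replicates differed by more than counting noise (chi-square over degrees of freedom 6.79 to 34.8, genes with at least 20 counts a pair). Alternatives were DESeq2 1.42.0, its size factors in edgeR, no filter, only the compared libraries, a replicate block, and libraries left out. The members, gene lists and the set of mock libraries 1 left out were chosen with earlier results of these data known. The 6 members were always named, list genes could be, and the 3 genes most like each member were. Figures were drawn with matplotlib 3.10.9.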

Additional observations from a re-analysis of the deposited data

Results flagged for a closer look

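Among the list genes beside the 6, 9 had an ABA response that differed between crosses by edgeR's test of the difference. They were 6 of 13 secondary wall genes and 1 of 13 xylem transcription factor genes, with 1 of 8 other metacaspase genes and 1 of 5 root cap death genes. Of all genes tested, 0.169% were called for J1721 against C24 and 0.0235% for J1721 against Q0990. The lists were chosen with earlier results of these data known. In J1721 against C24 the difference was -1.08 for MYB46, -0.69 for CESA4, -0.90 for CESA7 and -0.83 for CESA8. It was -0.76 for IRX9, -0.90 for COBL4 and -0.91 for CTL2. Each was a smaller rise in J1721 except for CTL2, which did not rise there. The J1721 means of CTL2 were 39.5 CPM with ABA and 41.9 CPM in mock. MC2 fell less in J1721 than in C24, with a difference of 1.19. AT4G04460 rose less in J1721 than in Q0990, with a difference of -0.79. DESeq2 called these differences too, but most were lost in many alternatives. Of 18 alternatives, MC2 kept its call in 15, CESA7 in 10, CESA8 in 8 and MYB46, CESA4 and IRX9 in 7 each. COBL4 and CTL2 kept it in 6 each and AT4G04460 in 5, and the part of single libraries is given above.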

How the results depend on the processing

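Of 78 tested changes of the 6 genes, 16 were called, and 13 of these kept their direction and call under every alternative run. XCP1 and XSP1 in J1721 and RNS3 in J0571 each lost the call under at least 1, and MC9 and RNS3 in C24 gained it under at least 1, with the values given above; the cause was not tested. With 1 library left out, the members called numbered 4 to 5 in J0571, 2 to 3 in J1721, 4 to 4 in Q0990 and 4 to 6 in C24, and 0 to 0 in every response difference and mock comparison. Whether the replicate numbers pair the libraries was not settled. Same-numbered ABA and mock libraries of a cross had correlations of -0.069 to 0.097 in their deviations, none over 0.1. Differently numbered libraries reached 0.106, for J1721 ABA library 2 with J1721 mock library 3. Yet 15 of 24 libraries correlated best with their own number, a hint of pairing from the data and not from the design. Those 24 are not independent, since each correlation was used for its ABA library and again for its mock library. The replicate block changed no call of a member; it gave 11 genes in place of 36 for J1721 against C24, 43 in place of 65 for J0571 against J1721 and 3 in place of 5 for J1721 against Q0990.

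All 20 changes of sign were in values that were not called. RNS3 in J1721 against Q0990, at 0.004, was -0.00419 with the replicate block and -0.086 to 0.0583 without single libraries. Without mock library 1 of every cross, XSP1 in J1721 against Q0990 was -0.0291, XCP2 in mock J1721 against C24 was 0.00622 and MC9 in mock Q0990 against C24 was 0.0636. With single libraries left out, response differences that changed sign ran from -0.127 to 0.00358 for XCP2 in J0571 against C24, -0.186 to 0.0121 for MC9 in J1721 against C24, -0.347 to 0.0626 for BFN1 in Q0990 against C24, -0.155 to 0.0272 for XCP1 and -0.000908 to 0.187 for XCP2 in J0571 against Q0990. Mock differences ran from -0.0219 to 0.108 for XCP2 and -0.206 to 0.0344 for BFN1 in J0571, and in Q0990 from -0.0109 to 0.126 for XCP1, -0.152 to 0.0031 for XSP1, -0.104 to 0.0602 for MC9 and -0.0505 to 0.0923 for RNS3. RNS3 in the J1721 response ran from -0.0339 to 0.116.

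Counts over all genes moved by over 1.5 times in the small comparisons alone. DESeq2 called 198 in place of 86 for J0571 against C24, 63 in place of 36 for J1721 against C24, 3 in place of 0 for Q0990 against C24, 135 in place of 65 for J0571 against J1721, 188 in place of 83 for J0571 against Q0990 and 12 in place of 5 for J1721 against Q0990, and in mock roots 264, 40 and 16 in place of 101, 9 and 10. Without mock library 1 of every cross the response counts were 57, 10, 0, 31, 35 and 1 and the mock counts 22, 5 and 8. Fits of the compared libraries alone gave 15 for J1721 against C24, 0 for J1721 against Q0990 and 39 for mock J0571 against C24, and no filter gave 1 for Q0990 against C24. Single libraries left out gave 57 to 90 for J0571 against C24, 8 to 34 for J1721 against C24, 0 to 1 for Q0990 against C24, 41 to 69 for J0571 against J1721, 45 to 99 for J0571 against Q0990 and 0 to 7 for J1721 against Q0990, and in mock roots 26 to 77 for J0571, 5 to 9 for J1721 and 6 to 17 for Q0990. The lowest count came without J0571 mock library 1 for mock J0571 and for J0571 against C24 (as also without C24 ABA library 3), J1721 and Q0990. For J1721 against C24 it came without C24 ABA library 2, for mock J1721 without C24 mock library 3 or J1721 mock library 1, and for mock Q0990 without C24 mock library 2, while its highest came without Q0990 mock library 1. J1721 against Q0990 had 0 without any of J1721 ABA library 1, J1721 mock library 1 or 2, Q0990 ABA library 1 or 3 or Q0990 mock library 3. The size of a difference in response that 3 libraries a group can show is limited: standard errors were 0.12 to 0.27.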

Other observations

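CEP1, a cysteine endopeptidase gene of the papain family with known roles in developmental cell death, was noticed after its values were seen. It had 11.0, 13.5 and 24.6 CPM in J0571 ABA libraries, against 0.297, 0.558 and 0.646 CPM in J0571 mock libraries. In J1721 it had 6.01, 17.1 and 11.1 CPM with ABA, against 0.285, 0.447 and 0.72 CPM in mock. In Q0990 it had 10.7, 19.4 and 13.9 CPM with ABA, against 0.437, 0.331 and 0.844 CPM in mock. In C24 it had 13.7, 21.4 and 6.86 CPM with ABA, against 0.954, 0.577 and 0.578 CPM in mock. CEP1 rose in each cross, by 5.01 ± 0.49, 4.5 ± 0.49, 4.78 ± 0.49 and 4.33 ± 0.47 on the log2 scale, more than any other gene of the protease lists. Within the ABA libraries of each cross, the order of CEP1 from lowest to highest was the order of BFN1. XCP2 and MC9 also had the order of BFN1 in J0571, J1721 and C24, but not in Q0990. These orders are a description of 12 libraries, and they were not tested.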
